A study of Drosophila melanogaster with 4 samples.

Results

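The regions described here are the long stretches of the chromosome arms 2L, 3L, 3R and X in which no list of the series placed an H3K9me3-enriched cluster. They were selected on the deposited cluster positions: the clusters of all 3 lists were merged, and every interval of at least 50 kb between neighbouring merged clusters, or between a cluster and a sequence end, was taken. There were 436 such stretches among 5195 cluster-free intervals on these 4 arms, and among 7948 on all 13 sequences that carried clusters. Because the cluster positions chose them, the emptiness, number and length of the stretches are given as a description with no test.

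The series is a ChIP-seq experiment on formaldehyde-treated head nuclei of Drosophila melanogaster, from wild type flies of the strain Oregon-R-modENCODE whose stage is labelled Mixed Adult. It has 2 ChIP samples against H3K9me3 and 2 Input samples, the Inputs having no file among those analysed. Flies were raised in population cages and heads were sieved from whole adults, so the nuclei come from many animals and from all cell types of the head; the sex is not given. One cluster list belongs to each ChIP replicate and the third, called the combined set, to the series as a whole. Positions are on FlyBase release 5. The lists hold no read counts, so depth is unknown, and an interval without a cluster cannot be read as chromatin shown to lack the mark: assembly gaps, unmappable repeats and weak signal below the caller's threshold were not examined. Nothing in the labels says that the replicates came from separate cages or collections, so their spread may be a technical one.

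H3K9me3 is a trimethyl mark on the tail of histone H3 and the best known label of constitutive heterochromatin. In flies it is laid down by enzymes that include Su(var)3-9 and Eggless and is bound by HP1a, and it packs the repeat-rich sequence around centromeres, the dot chromosome and the Y. The long arms outside the pericentric blocks are mostly euchromatin, where most genes lie and where the mark appears as scattered short islands, many of them at transposon insertions. The stretches without a cluster are the longest runs of arm sequence between such islands.

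The 436 stretches added up to 42.3 Mb, which was 43.2% of the 97.9 Mb of the 4 arms. They were only 8.39% of the cluster-free intervals but held 50.5% of the cluster-free sequence. The median stretch measured 80.8 kb, with quartiles of 61.9 and 111.7 kb, against a median of 5026 bp for cluster-free intervals of any length. Long stretches were few: 184 measured 50 to 75 kb, 106 measured 75 to 100 kb, 95 measured 100 to 150 kb, 32 measured 150 to 200 kb and 19 were longer. The 146 stretches of at least 100 kb held 52.1% of the total length.

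The 50 kb limit did not fall in a natural gap between short and long intervals. There were 50 intervals of 50 to 55 kb and 49 of 45 to 50 kb. The shortest stretch inside the limit was 50.116 kb long and lay on 3R (4552122 to 4602237). It was followed by another of 3R with 50.126 kb (1603784 to 1653909) and by one of the X with 50.132 kb (13912919 to 13963050). The longest intervals left outside it all lay on 2L and had lengths of 49.597 kb (17125887 to 17175483), 49.411 kb (15364472 to 15413882) and then 49.11 kb (3259337 to 3308446).

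The X, the sex chromosome that is single in males, held fewer and shorter stretches than the autosomal arms 2L, 3L and 3R. The term autosomal arms means these 3 only, since arm 2R was not part of the selection. It had 70 stretches, or 3.12 per Mb, over 25.1% of its sequence. The autosomal arms had 111 on 2L, 117 on 3L and 138 on 3R. Their density was alike, at 4.82 per Mb on 2L, 4.77 per Mb on 3L and 4.95 per Mb on 3R, and stretches took up 47.3%, 46.8% and 51.1% of those arms. The median stretch measured 66.5 kb on the X, against 89.4 kb on 2L, 83.6 kb on 3L and 79.0 kb on 3R. Stretches of at least 100 kb numbered 16 on the X (22.9% of its stretches) and 130 on 2L, 3L and 3R together (35.5%). None of the X stretches reached 200 kb, whereas 3 did on 2L, 5 on 3L and 11 on 3R. Without the combined set such stretches occurred on the X too: 7 against 62 on the 3 autosomal arms in replicate 1 alone, 6 against 78 in replicate 2 alone, and 3 against 45 with the replicates merged. The X also carried more merged clusters, 74.7 per Mb against 46.6 per Mb on the 3 autosomal arms.

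**Figure D1:**
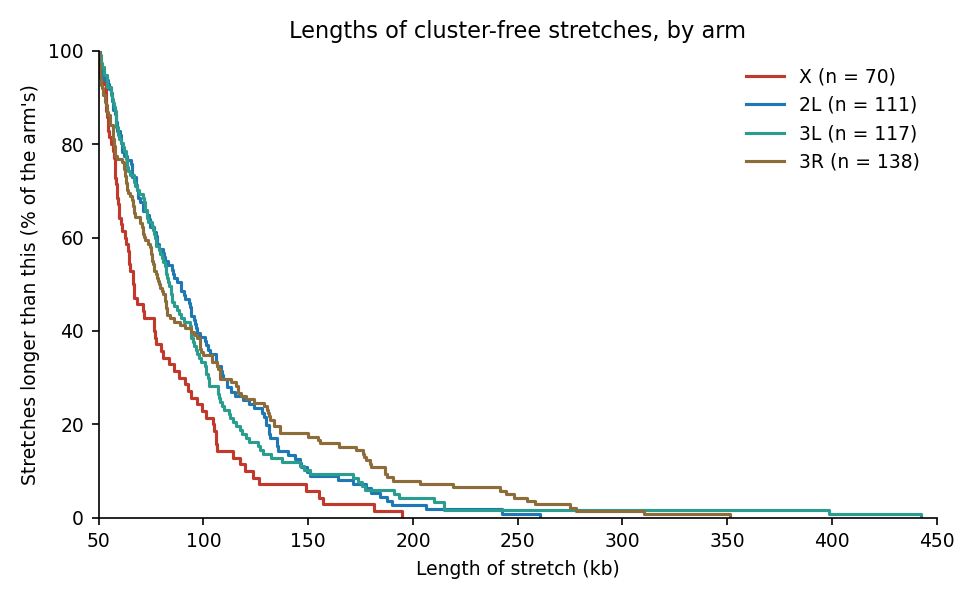
Share of each arm's cluster-free stretches (y axis, percent) that are longer than the length on the x axis (kb, from the 50 kb limit), one line per arm. The X line falls fastest and ends at 194.7 kb, while the lines of 2L, 3L and 3R reach 260.9, 442.6 and 351.2 kb.

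As a ratio of X to autosomal arms, the differences in density and share were smaller in each replicate than in the merged lists. That in median length was on average alike in these lists, but larger with only the 2 replicates merged, at a ratio of 0.755. When the same rule was applied to each replicate's clusters alone, the share of the X in stretches was 51.0% ± 1.73 (mean ± SD over the replicates, n = 2, here and wherever ± is used) and that of the 3 autosomal arms was 72.8% ± 3.50. The gap was larger than either SD and lay in the same direction in both lists. The ratio of the shares was 0.70 ± 0.01, where the merged lists gave 0.52. The density differed less: the X had 4.95 ± 0.19 stretches per Mb and the autosomal arms had 5.40 ± 0.03, a ratio of 0.92 ± 0.04, where the merged lists gave 0.64. The median stretch measured 87.2 ± 1.92 kb on the X and 108.3 ± 3.19 kb on the autosomal arms, a ratio of 0.81 ± 0.04, where the merged lists gave 0.80. With this few replicates the spread itself is poorly known.

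The merged stretches were in practice those of the combined set. That list alone gave 438 stretches over 43.5% of the arms, with a longest one of 442.6 kb on 3L, as in the merged lists. Replicate 1 alone gave 517 stretches over 65.6% of the arms and replicate 2 gave 520 over 70.0%, with medians of 103.0 and 104.7 kb. The replicate lists carried 2568 and 2281 clusters on these arms, the combined set 5177. Of the 872 stretch borders, 729 (83.6%) coincided with a cluster edge of the combined set, 93 with one of replicate 1 and 54 with one of replicate 2; some edges were common to several lists.

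**Figure D2:**
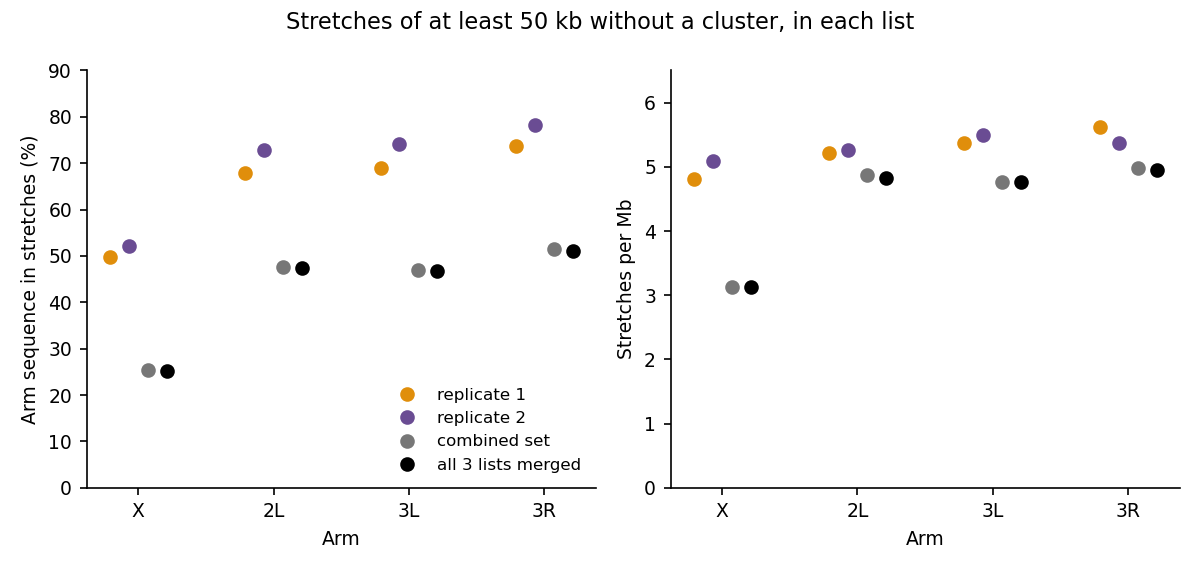
Share of arm sequence in stretches (left, percent) and stretches per Mb (right) on each arm, for replicate 1, replicate 2, the combined set and all 3 lists merged. The combined and merged points nearly coincide and lie below both replicates on every arm, and the X is lowest in every list for both measures.

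Merging only the 2 replicates gave 505 stretches, with 33 of 97 at 100 kb or more on the X and 209 of 408 on the autosomal arms. These intervals took up 59.6% of the arms, and a combined cluster inside one touches neither replicate by construction. Such a cluster lay inside 370 of the 505 intervals (73.3%). There were 884 such clusters, with a median width of 1325 bp and a median score of 0.42. The 2890 combined clusters on the same arms that touched a replicate had medians of 2434 bp and 0.51. The widths are not on equal terms, since the replicate lists held no cluster under 1301 bp there and the combined set began at 1001 bp. The score is the value that the authors deposited with a cluster, on a scale the files do not state, so scores are compared only inside one list. The 436 stretches lay inside 389 intervals of the merged replicates, 45 of which held more than 1 stretch and at most 3.

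The X held its longest stretch, 194.7 kb, from 3492363 to 3687063. It lay in an interval of 295.1 kb in replicate 1 and 344.2 kb in replicate 2. The clusters on its sides were 1332 bp and 1772 bp wide, and both were called in the combined set alone. Next in length on that arm were 181.6 kb (9268344 to 9449964), 157.2 kb (14216422 to 14373641), 155.2 kb (6267001 to 6422157) and, as the fifth, 148.7 kb (12072449 to 12221178). The second lay in 212.1 kb of replicate 1 and 182.7 kb of replicate 2, and the fourth in 155.8 kb of replicate 1 and 179.2 kb of replicate 2. The third was part of 339.2 kb in replicate 1 and 264.0 kb in replicate 2. The fifth was 149.0 kb long in replicate 2 and part of 216.0 kb in replicate 1.

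On 2L the longest stretch measured 260.9 kb (15489440 to 15750311). Both replicates left nearly the same interval free, 275.0 kb in replicate 1 and 270.3 kb in replicate 2. Its cluster on the low-coordinate side was 1900 bp wide and called in the combined set alone, and that on the other side was 2576 bp wide and called in all 3 lists. It was followed by 242.3 kb (17556157 to 17798442), 206.3 kb (3914264 to 4120609), 190.2 kb (2464109 to 2654279) and, as the fifth, 187.7 kb (19775113 to 19962796). The second was shorter than its surroundings in the replicates, which were free over 453.9 and 421.5 kb; that replicate interval held a further stretch. The fourth lay in intervals of 363.0 and 310.6 kb. For the third and the fifth, one replicate was within a few percent of the merged length and the other was longer, at 246.9 and 226.6 kb in replicate 2.

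Arm 3L carried the longest pair of stretches of the 4 arms. They measured 442.6 kb (10238131 to 10680738) and 398.4 kb (9838304 to 10236689) and were neighbours. A single cluster 1441 bp wide parted them, found in the combined set with a score of 0.30 and in neither replicate. Replicate 1 left 976.6 kb free around them and replicate 2 left 913.3 kb. Counting only clusters whose score reached the median of their own list, the free interval grew to 1410 kb (9486308 to 10895854), the longest found at that setting on any of the 4 arms. Arm 3L had 3 further long stretches, of 214.9 kb (13626490 to 13841342), 214.7 kb (6376368 to 6591056) and, the last, 209.9 kb (17914005 to 18123953). Replicate 1 and replicate 2 left 329.2 and 332.8 kb free around the first of these and 236.6 and 237.9 kb around the last, while they differed around the middle one, at 240.3 and 553.4 kb.

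The longest stretches of 3R lay mostly on the distal part of the arm. Their lengths were 351.2 kb (23767207 to 24118396), 310.5 kb (21962772 to 22273246), 277.7 kb (22386507 to 22664210), 274.9 kb (23416115 to 23691025) and, nearest to mid-arm, 258.1 kb (15311860 to 15569998). The second was the most alike between lists, with 315.0 kb free in replicate 1 and 313.8 kb in replicate 2. The first had 353.9 kb free in replicate 1 and 553.0 kb in replicate 2, because a cluster of 1513 bp on its high-coordinate side was called in replicate 1 and not in replicate 2. The third lay in 491.4 kb of replicate 1 and 667.7 kb of replicate 2, the fourth in 329.6 and 359.3 kb, and the fifth in 262.9 and 289.0 kb.

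**Figure D3:**
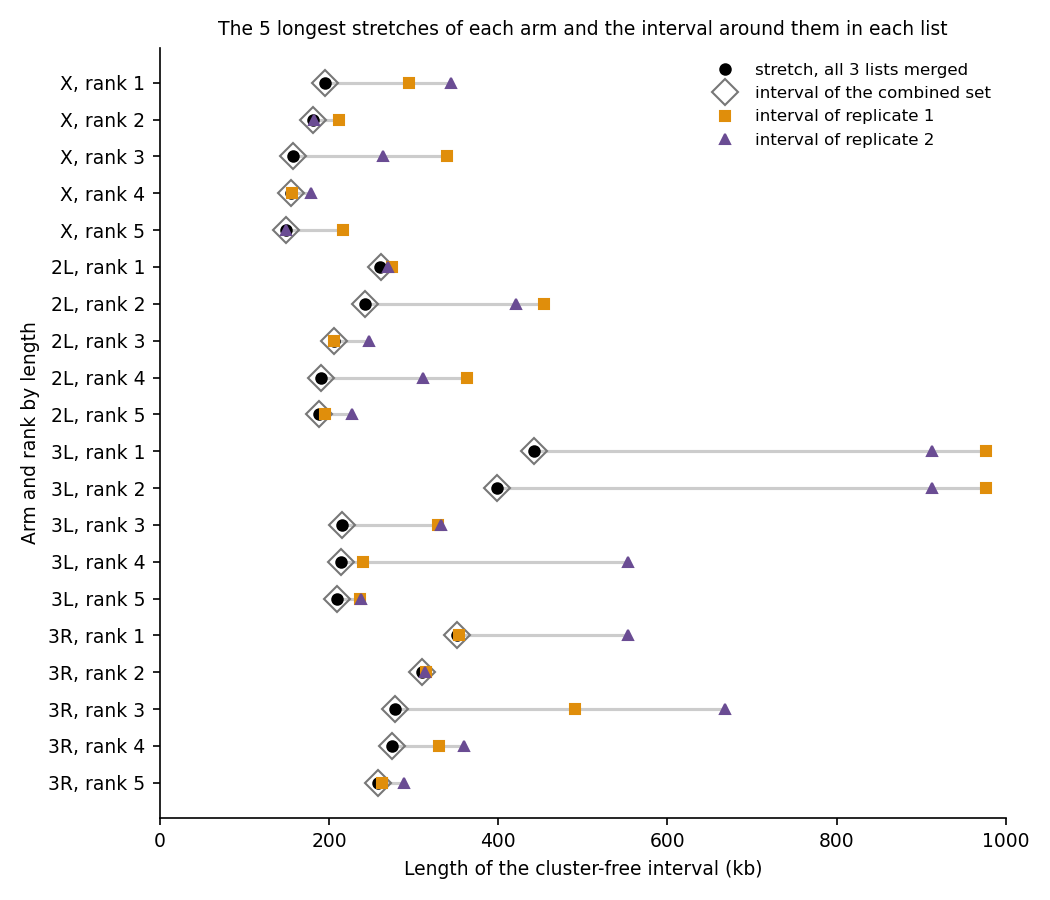
Lengths (x axis, kb) of the 5 longest stretches of each arm, ranked by length, with the length of the cluster-free interval that holds each one in the combined set, replicate 1 and replicate 2. Combined and merged lengths coincide, and the replicate intervals range from nearly equal, as for the second of 3R, to 976.6 and 913.3 kb around the first pair of 3L.

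The replicates were also set against each other, since one replicate's clusters play no part in finding the other's stretches. Inside the 517 stretches of replicate 1, clusters of replicate 2 covered 0.80% of the sequence, against 19.9% of the rest of the arms. Inside the 520 stretches of replicate 2, clusters of replicate 1 covered 1.43%, against 23.2% of the rest. Averaged over all positions of a circular shift, which moves the clusters around an arm with its ends joined, the coverage inside would be 7.19% and 7.78%; this mean follows from the arm-wide coverage and was calculated, not drawn. Leaving out the proximal 2 Mb of each arm, where the dense pericentric blocks lie, gave 0.77% inside against 14.3% outside for the stretches of replicate 1, and 1.43% against 17.7% for those of replicate 2. The clusters found inside were narrow, with median widths of 1598 and 1608 bp, against 2023 and 2084 bp for those not wholly inside.

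Of the 517 stretches of replicate 1, 189 (36.6%) held a cluster of replicate 2 wholly inside, 153 (29.6%) were only overlapped at an edge, and 175 (33.8%) were untouched. Of the 520 stretches of replicate 2, 276 (53.1%) held a cluster of replicate 1 wholly inside, 160 (30.8%) were only overlapped at an edge, and 84 (16.2%) were untouched. An uninterrupted 50 kb was left in 471 of the stretches of replicate 1 (91.1%) and in 454 of those of replicate 2 (87.3%). On the X this share was lower, 84.3% and 78.9%, than on 2L (94.2% and 90.1%), 3L (93.2% and 91.1%) or 3R (91.7% and 88.0%). The X stretches of each replicate were shorter to begin with, with medians of 88.6 and 85.8 kb, against 106.1 and 110.6 kb on the autosomal arms. Coverage inside was also highest on the X, at 1.47% and 1.97%, and lowest on 2L, at 0.59% and 1.23%. On 3R it was 0.64% and 1.29%. Over the whole arm the same clusters covered 8.95% and 9.67% of the X and 8.03% and 8.46% of 2L. They covered only 4.05% and 4.69% of 3R. Of the sequence in stretches, 59.5 Mb was common to both replicates, which was 92.6% of that of replicate 1 and 86.9% of that of replicate 2.

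Along the arms the stretches were sparse near the centromere end, and no stretch reached a sequence end. On a circle the number and lengths of the stretches are the same wherever the clusters are moved, since the free sequence at the 2 ends of an arm joined to at most 27.2 kb. A circular shift therefore says nothing of number or length, and on average it puts the arm's own share of stretches into every part of that arm. For a comparison with that mean each arm was cut into 10 equal sections, numbered from the centromere end. Section 1 was low on each arm: 16.9% in stretches against 25.1% over the whole X, 19.1% against 47.3% on 2L, 23.0% against 46.8% on 3L, and 34.7% against 51.1% on 3R. In the replicates section 1 of the X stood at 44.5% ± 5.50, little more than 1 SD below the whole-arm share of 51.0%. Replicate 1 had 48.3% there against 49.8% over the whole X, and replicate 2 had 40.6% against 52.2%. The values on 2L (29.3% ± 2.19), 3L (31.6% ± 0.37) and 3R (59.0% ± 7.70) were below the whole-arm shares of 70.4%, 71.6% and 76.0% by more than the SD.

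The last stretch before the centromere lay 1468 kb from the end of 2L (21412478 to 21543785, 131.3 kb) and 1839 kb from the end of 3L (22642235 to 22704101, 61.9 kb). It lay only 96.4 kb from the end of 3R (96413 to 159220, 62.8 kb) and 184.9 kb from that of the X (22133372 to 22237917, 104.5 kb). Counted by their midpoints, 5 stretches of the X, 3 of 2L, 2 of 3L and 9 of 3R fell in the proximal 2 Mb. At the opposite, telomere-facing ends the first stretch began close to the end of the sequence on each arm, between 28.2 kb (3L) and 41.0 kb (3R) from it. The distal 2 Mb was 30.1% in stretches on the X, 41.5% on 2L, 35.2% on 3L and 48.1% on 3R, with 7 to 11 midpoints each.

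**Figure D4:**
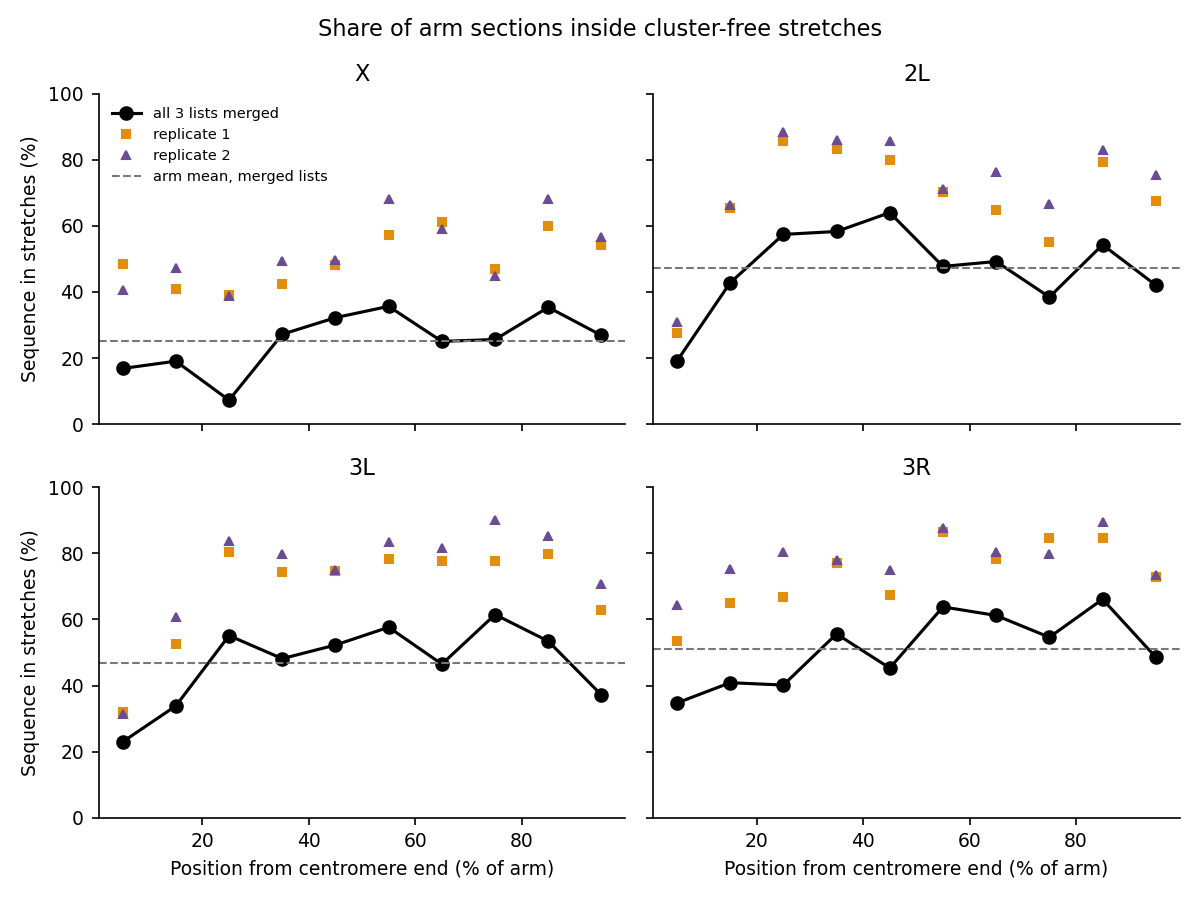
Share of sequence in stretches (y axis, percent) in each of 10 equal sections of an arm, from the centromere end (x axis, percent of arm length), for all 3 lists merged and for each replicate; the dashed line is the mean of the arm in the merged lists. On the merged line section 1 lies below the arm mean on every arm, and on the X the lowest merged value, 7.29%, lies in section 3.

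Between the ends the arms differed in pattern. On 2L the highest share was that of section 5, at 64.0%, and on 3L that of section 8, at 61.5%. In both replicates section 3 of 2L was higher, at 86.9% ± 2.00, than section 5, at 82.8% ± 4.01. On 3R the highest share was that of section 9, at 66.1%, where the median stretch measured 142.3 kb, against 79.0 kb over the whole arm. Replicate 2 was also highest in section 8 of 3L (90.1%) and section 9 of 3R (89.5%). Replicate 1 was highest in section 3 of 3L (80.5%, against 77.5% in section 8). On 3R it was highest in section 6 (86.3%, against 84.7% in section 9). The X had its lowest share in section 3, 7.29% with 3 stretch midpoints, and the replicates were at 38.9% ± 0.31 there, their lowest on that arm too.

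Taken by 1 Mb windows from the centromere end, the fullest window was 94.5% in stretches (3L, 9543558 to 10543557), with clusters over 0.96% of it. The fullest on the other arms reached 79.5% on 3R (23000001 to 24000000), 71.3% on 2L (17011545 to 18011544) and 47.9% on the X (2422828 to 3422827). A window without any stretch sequence occurred once on 2L, once on 3L and once on the X. On 2L and 3L it was the window at the centromere end, 84.4% and 91.7% covered by clusters and free of stretches in both replicates. On the X it was 15422828 to 16422827, only 27.3% covered, and the replicates had 28.6% ± 5.60 of it in their own stretches. On 3R the lowest window still held 20.7% (12000001 to 13000000), with 48.0% ± 16.0 in the replicates.

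The longest part of an arm without a stretch differed in kind between arms. On the X it spanned 1.84 Mb (15193077 to 17037348), in which 189 merged clusters covered 26.1% of the sequence and no interval between them exceeded 45.9 kb. That part lay far from the arm's ends, and the replicates had 25.02% ± 3.74 of it in stretches of their own. On 2L it was the 1.47 Mb at the centromere end (21543786 to 23011544, 68.8% covered) and on 3L the 1.84 Mb there (22704102 to 24543557, 77.8% covered). On 3R it was 809.3 kb within the arm (2384290 to 3193597), where 111 merged clusters covered 26.8% and the longest interval was 47.6 kb. The replicates differed on that part of 3R, with 52.0% ± 21.9 of it in their own stretches. The next on 3R, 465.1 kb from 12396476 to 12861549, was 36.2% covered by 89 clusters, and only 26.9% ± 1.70 of it was in stretches of the replicates.

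Neighbouring stretches lay at widely varying distances from each other. The median distance from one stretch to the next was 68.1 kb, with quartiles of 17.8 and 154.0 kb. It was 106.4 kb on the X, against 67.5 kb on 2L, 53.6 kb on 3L and 62.3 kb on 3R. Of the 432 spacers, 81 (18.8%) were under 5 kb, and 208 (48.1%) held more than 5 merged clusters. More than 5 clusters lay in 65.2% of the spacers on the X, in 42.7% on 2L, 42.2% on 3L and 48.9% on 3R. Clusters covered a median of 23.9% of a spacer.

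A single merged cluster separated 77 pairs of neighbouring stretches, 9 on the X, 22 on 2L, 27 on 3L and 19 on 3R. Both replicates held 21 of these 77 separators (27.3%), a single replicate held 22 (28.6%), and 34 (44.2%) occurred in neither. These shares were close to those of merged clusters that border no stretch, at 28.6%, 27.2% and 44.2%. Their median width was 1786 bp. Joined by such clusters, 141 stretches formed 64 chains, most of them pairs. The longest chain had 5 stretches over 529.4 kb of 3L (13513104 to 14042525), of 112.4, 214.9, 54.2, 63.7 and 73.7 kb. The 4 clusters in it were 1001 to 6296 bp wide and added up to 10.7 kb, which left 98.0% of the span free. Chains of fewer stretches spanned more in 3 cases. One of 3 stretches took 906.1 kb of 3L (9774640 to 10680738), 99.6% free, another of 3 took 701.4 kb of 3R (21962772 to 22664210), 99.2% free, and one of 2 took 543.4 kb of 3R (23767207 to 24310599), 99.7% free.

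The clusters that border the stretches were ordinary arm clusters in width. There were 795 of them, with a median of 1820 bp and quartiles of 1348 and 2518 bp, against a median of 1872 bp and quartiles of 1379 and 2804 bp for the 4398 other merged clusters. In each replicate's own list the ratio of these medians was 0.95 ± 0.01, and in the merged lists 0.97. It turned round to 1.05 when only clusters whose score reached the median of their list were used. Over the 4 arms, wide clusters were fewer at the borders: 4 bordering clusters (0.503%) and 104 others (2.36%) were at least 10 kb wide. The difference lay on 2L, 3L and 3R together, with 2 of 664 bordering and 81 of 2853 other clusters. On the X the shares were alike, at 2 of 131 and 23 of 1545. Over the 4 arms, most of the other clusters of that width lay in the proximal 2 Mb of an arm: outside it the counts were 3 of 759 and 33 of 3913, and the medians 1807 and 1839 bp. Width did not vary in one direction with the length of the stretch: the median was 1833 bp for clusters whose longest neighbouring stretch measured 50 to 75 kb, 1714 bp for 75 to 100 kb, 1891 bp for 100 to 150 kb, 1772 bp for 150 to 200 kb and 1900 bp above that.

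**Figure D5:**
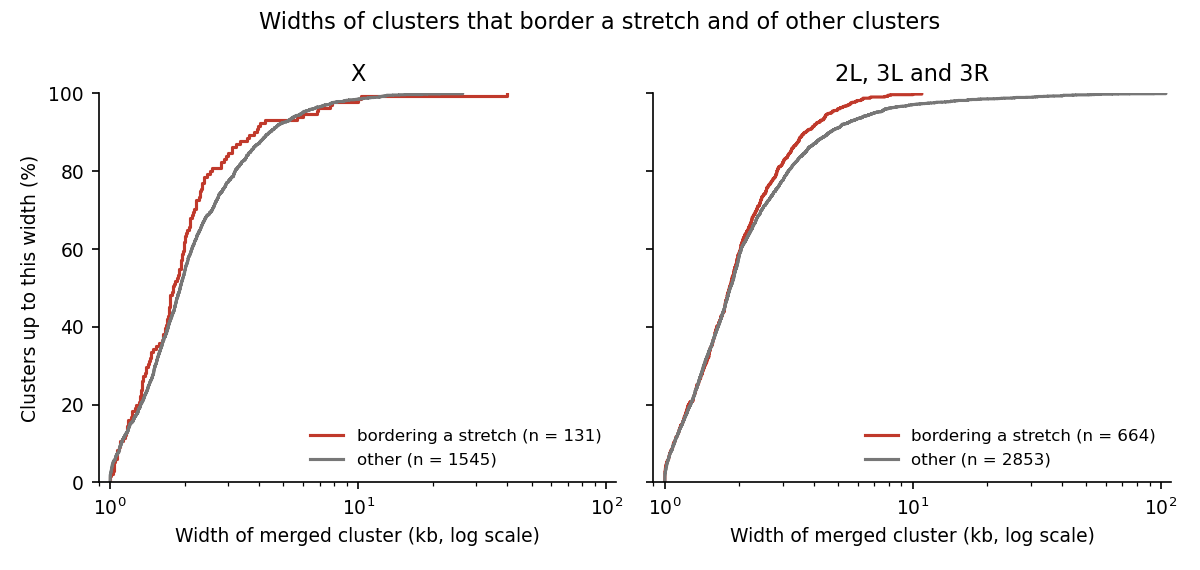
Cumulative share of merged clusters (y axis, percent) up to the width on the x axis (kb, log scale), for clusters that border a stretch and for the other clusters, on the X (left) and on 2L, 3L and 3R (right). The lines run together through the medians, which are 1792 bp (bordering) and 1918 bp (other) on the X and 1823 and 1835 bp on 2L, 3L and 3R, and part in the upper tail.

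The widest cluster next to a stretch was 39.9 kb on the X (21647534 to 21687397, combined score 1.62), in the proximal part of that arm; it bordered a stretch of 71.1 kb. On the autosomal arms the widest measured 10.9 kb on 2L (6932070 to 6942943, score 1.20), 10.0 kb on 3L (12767287 to 12777294, score 0.72) and 8.14 kb on 3R (21821766 to 21829907, score 0.75). The replicates covered between 72.9% and 95.9% of each of these 4. The one on 3L stood between 2 stretches.

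Many borders rested on the combined set alone. Of the bordering clusters, 239 (30.1%) were found in both replicates, 212 (26.7%) in 1 and 344 (43.3%) in neither; the shares of the other clusters were 28.6%, 27.2% and 44.2%. Presence in both replicates was more frequent for bordering (31.1%) than for other clusters (23.1%) on 3R, and less frequent on the X (22.1% of bordering and 31.1% of other clusters). The shares were closer on 2L (32.5% and 29.2%) and 3L (31.4% and 30.6%). Outside the proximal 2 Mb they were 32.1% and 26.8% on 2L, and 31.4% and 26.3% on 3L. On 3R they were then 29.9% and 22.3%, and on the X 20.7% and 31.0%. The 344 in neither replicate had a median width of 1308 bp and a median combined score of 0.41, and the 239 in both had 2975 bp and 0.56. The width difference is partly set by the lists themselves. Neither replicate list held a cluster under 1301 bp on these arms, so a merged cluster that touches a replicate is at least that wide. Among the 344 were 15 with a score of 1 or more, the highest being 3.61. No such count is given for the other clusters, so it does not set the borders apart. Narrow high scorers occurred between stretches too: a cluster of 1001 bp on 2L (12787305 to 12788305) had a score of 3.42 and one of the same width on 3R (22385506 to 22386506) had 2.20. Both separated 2 stretches and touched neither replicate, and 1001 bp was the narrowest width in the combined set on these arms, shared by 100 of its 5177 clusters there.

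Scores of bordering and other clusters were close. The median combined score was 0.45 for bordering and 0.47 for other clusters over the 4 arms. On the X it was 0.55 for both, and on the autosomal arms 0.43 and 0.44. In replicate 1 the medians were 0.62 and 0.68, and in replicate 2 they were 0.64 and 0.70, over the merged clusters that touch that list. The X held a smaller part of the bordering than of the other clusters, and its scores were higher in all 3 lists. On the autosomal arms alone the medians were 0.61 and 0.63 in replicate 1, and 0.61 and 0.65 in replicate 2.

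Cluster coverage near the stretches was set by their own border clusters at short range. Within 10 kb of a stretch, outside the stretches themselves, clusters covered 35.9% of the sequence on the X, 34.8% on 2L, 34.6% on 3L and 32.8% on 3R, which the presence of a cluster at each border ensures. Within 100 kb the values were 25.6% on the X, against 24.7% for the remaining sequence outside stretches. They were 21.4% on 2L, 20.1% on 3L and 21.1% on 3R, against 45.1%, 45.1% and 25.7%. On 2L and 3L that remaining sequence includes the pericentric blocks.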

How the data were processed

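Enriched clusters were called by the authors, who deposited a start, an end and a score per cluster for each ChIP replicate and for a combined set. The submitters' processing notes name Bowtie 0.12.7, and the file headers name FlyBase release 5 for the coordinates. Not given in the sources used here: the caller, its threshold, whether the Inputs entered, and how the combined set was made. The scale of the deposited score is not stated.

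Clusters of the 3 lists were merged where they overlapped or touched, and 4 that ended beyond a sequence end were clipped. A merged cluster counted as found in a list at an overlap of at least 1 bp. The same rule was applied to each replicate alone for mean ± SD (n = 2). No p-value was computed. Regions were named by rule: the 5 longest stretches per arm, those reaching a sequence end (none), the 3 on either side of the 50 kb limit, the longest chain and, per arm, the widest bordering cluster and the longest part without a stretch; other regions named were chosen after their values were seen. Members and measures were chosen with earlier results of these data known. The gene table at hand is on release 6, so no gene was placed. Python 3.11.15, numpy 2.4.6 and matplotlib 3.10.9 were used; the interval code was checked on simulated data.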

Additional observations from a re-analysis of the deposited data

How the results depend on the processing

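The number of stretches was 436 and stayed within 1.5 times that under each change of list, score or cluster width; with a minimum length of 30 kb it was 759 and with 100 kb 146. Merging only the 2 replicates gave 59.6% of the arms in stretches, a median length of 95.2 kb, a ratio of X to autosomal density of 0.80 and a bordering-to-other width ratio of 0.99. Keeping clusters whose score reached their own list's median gave 72.0%, 110.8 kb and a density ratio of 0.87, and turned the width ratio round to 1.05. Share and length moved the other way: stretches took up 37.8% of the X against 82.2% of 2L, 3L and 3R together. Without the score limit these shares were 25.1% and 48.6%. The medians were 77.7 and 131.2 kb, against 66.5 and 82.7 kb without it. Clusters kept per Mb were 49.5 for the X but 12.3 for 2L, 3L and 3R, from 74.7 and 46.6. A minimum of 30 kb gave 55.8% of the arms, a density ratio of 0.81 and a width ratio of 0.95; a minimum of 100 kb gave 22.5% and 0.41, and a width ratio of 1.002, so bordering clusters cannot be called narrower by their median. Without the proximal 2 Mb the width ratio was 0.98, and coverage by the other replicate outside the stretches was 14.3% for replicate 1 and 17.7% for replicate 2, a setting added after seeing the data. Requiring each replicate to cover 50% of a bordering cluster lowered the share found in both to 25.9%. The X stayed below the autosomal arms in density at each setting. Leaving out either replicate while keeping the combined set, using that set alone or requiring 1 kb of cluster width moved no value beyond the replicate SD, the last because no cluster on the arms is narrower; leaving out sequence-end stretches removed none. The cause of the other changes was not tested, and depth is unknown. No paired analysis was possible because the Inputs have no file here and no result comes from a test.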
